A study of Caenorhabditis elegans with 2 samples.

Results

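A set of 10 enzyme genes of glycolysis was examined for UNC-120 binding in Caenorhabditis elegans embryos, out of 19973 protein-coding genes of the nuclear chromosomes. The members were named by symbol: pfk-1.1 (phosphofructokinase), aldo-1 (aldolase), gpd-1, gpd-2 and gpd-3 (glyceraldehyde-3-phosphate dehydrogenase, GAPDH), pgk-1 (phosphoglycerate kinase), enol-1 (enolase), pyk-1 and pyk-2 (pyruvate kinase) and ldh-1 (lactate dehydrogenase). All 10 were found in the annotation. A member was called bound when the summit of a region on the authors' reproducible list lay between 5 kb upstream of the annotated gene start and the 3' end of the gene. That list was cut by the authors at an irreproducible discovery rate (IDR), a measure of how alike regions rank in the replicates. Its nuclear part was the top 2946 regions, by score, of the ranked list of both replicates pooled. Regions with unlike replicate ranks can therefore be on it, such as one at pck-1 with ranks of 10358 and 1432.

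The assay was ChIP-seq with an anti-GFP antibody on strain OP659, whose genotype is unc-119(tm4063) III with the transgene wgIs659. This transgene supplies UNC-120 with GFP and FLAG joined to its C terminus, so the values describe the tagged protein. Chromatin came from whole embryos of mixed stage and pooled sexes, 3 h after egg bleaching, in 2 biological replicates of 1 group with no second condition. Embryos were not sorted by tissue, so strong binding in few cells and weak binding in many cannot be told apart, nor can muscle be told apart from other tissues. A possible control experiment that the labels name was not analysed here.

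Glycolysis splits glucose into pyruvate and yields ATP without oxygen. Muscle relies on it for rapid contraction. UNC-120 is a MADS box factor related to the vertebrate serum response factor (SRF), which binds the CArG box, and it acts with HLH-1 in building body wall muscle.

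Of the 10 genes, 5 were bound (aldo-1, gpd-2, gpd-3, pyk-1 and ldh-1), against 19.7% of all protein-coding genes under the same rule. The 5 genes shared 6 distinct summits, because gpd-2 and gpd-3 drew on the same one. The other 5 (pfk-1.1, gpd-1, pgk-1, enol-1 and pyk-2) had no IDR summit in the window. The members' windows had a median length of 6961 bp, close to the 7027 bp of all genes. The median distance from gene start to the nearest IDR summit, on either side, was 2299 bp for the members (range 130 to 28307 bp) and 15794 bp for all genes. No test was made of these differences, since the genes were chosen with results of these data known.

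The count depended on how a summit was given to a gene. Near transcript 5' ends, counted as the 1000 bp before and the 500 bp after each, 2 members (aldo-1 and ldh-1) were bound, against 9.27% of all genes. When each summit was given only to the gene with the nearest 5' end, 3 members (aldo-1, pyk-1 and ldh-1) were bound, against 10.6%. Nearest 5' ends belonged to a member at 4 of the 6 summits and to another gene at the remaining 2.

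**Figure D1:**
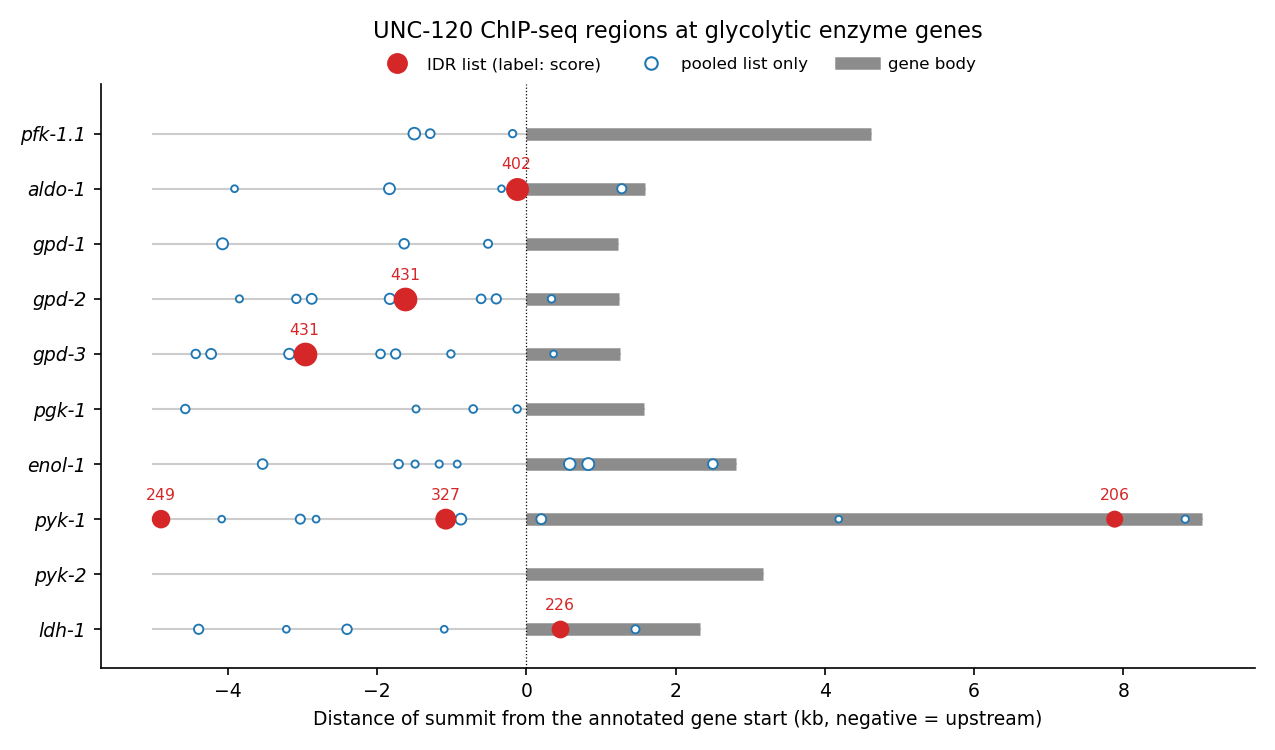
Positions of UNC-120 regions at the 10 genes, with the distance of each summit from the annotated gene start in kb on the horizontal axis (negative values upstream) and 1 gene per row. Red filled marks labelled with their scores are IDR summits, grey bars are gene bodies and open marks are regions of the pooled ranked list outside the IDR list; IDR summits lie from 4896 bp upstream to 7883 bp downstream of the gene start, and pyk-2 has no pooled region.

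The sequences that carry the comparison are given here, from build ce11 (RefSeq WBcel235), 5' to 3' on the strand of the gene. They are the 201 bases around the summit of aldo-1 (chrIII:13564967-13565167, minus strand), which has the summit closest to its own gene start, and of ldh-1 (chrII:11724552-11724752, plus strand), the weakest of the 5 bound genes. The 201 bases of enol-1 (chrII:8931726-8931926, plus strand) belong to the strongest region among the unbound members. For gpd-2, 30 bases near the summit are shown (chrX:3116224-3116253, minus strand), since they hold the closest match to a CArG box there. Capitals mark the short sequences searched for, on either strand. These were the E-boxes CAGCTG and then CACCTG, the repeat GAGAGAGA, the GATA factor type sequence TGATAA, a CArG box with at most 1 mismatch and a MEF2 type site. The shorter repeat GAGAG was added after the sequences were seen.
aldo-1: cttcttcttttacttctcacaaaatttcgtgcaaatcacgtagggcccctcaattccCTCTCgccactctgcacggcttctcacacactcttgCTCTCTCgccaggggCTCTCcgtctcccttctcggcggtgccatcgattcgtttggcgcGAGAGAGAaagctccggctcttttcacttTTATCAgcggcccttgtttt
gpd-2: ccctgccctgCCTTCTAAGGaaacaacaca
ldh-1: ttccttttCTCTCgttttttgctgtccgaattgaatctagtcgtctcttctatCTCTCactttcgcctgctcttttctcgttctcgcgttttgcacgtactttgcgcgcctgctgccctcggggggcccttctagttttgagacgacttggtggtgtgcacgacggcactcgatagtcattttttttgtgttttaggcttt
enol-1: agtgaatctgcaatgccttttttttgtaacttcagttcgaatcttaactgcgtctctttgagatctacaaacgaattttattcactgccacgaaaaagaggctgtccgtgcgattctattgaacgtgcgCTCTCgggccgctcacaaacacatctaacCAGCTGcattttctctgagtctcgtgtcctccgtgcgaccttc
The aldo-1 stretch holds runs of GAGAG or CTCTC, its complement, on both sides of the summit. The ldh-1 stretch holds CTCTC at 2 places and none of the longer sequences. In the gpd-2 stretch the capitals differ from a CArG box at 1 base.

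Phosphofructokinase commits sugar to glycolysis. The gene pfk-1.1 (WBGene00022199, chrX:2940872-2945485, plus strand) had no IDR summit in its window. Its strongest region in the pooled list lay 1502 bp upstream, inside an exon of the noncoding RNA gene Y71H10A.3, and scored 126 (rank 4809). Scores are peak strengths from the authors' peak caller, and their scale was not given in the sources used here. Rank 1 is the strongest nuclear region of a list. The replicates placed this region differently, at rank 10701 in replicate 1, with a summit 115 bp away, and at rank 3605 in replicate 2. The nearest IDR summit was 9576 bp downstream of the gene start, past the 3' end of the gene, with a score of 460.

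Aldolase cleaves fructose bisphosphate into the trioses. The summit of aldo-1 (WBGene00011474, chrIII:13563346-13564937, minus strand) lay 130 bp upstream of the gene start, in the intergenic space of 1936 bp that separates the gene from its upstream neighbour exc-12. The region was 137 bp wide and scored 402, which is 1.37 times the median of 293 over the IDR list, and it ranked 808 of 2946. It ranked 920 in replicate 1 (score 183) and 750 in replicate 2 (score 218), with summits 23 and 1 bp from the IDR summit. Among the bound members this summit lay closest to its own gene start, and the nearest 5' end was that of aldo-1. Its paralogue aldo-2, with 69.8% identical coding bases, had no IDR summit in its window but had at least 1 region in the pooled list.

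GAPDH oxidises glyceraldehyde-3-phosphate, and the worm has 4 genes for it. The genes gpd-2 (WBGene00001684, chrX:3113443-3114689, minus strand) and gpd-3 (WBGene00001685, chrX:3112091-3113341, minus strand) are neighbours 101 bp apart. They are known as the downstream genes of an operon headed by mai-1, which encodes a homologue of the mitochondrial ATP synthase inhibitor, and gpd-2 starts 22 bp inside the mai-1 model. Their protein sequences were 99.7% identical. Both drew on the summit at position 3116314 of chromosome X, 1625 bp upstream of gpd-2 and 2973 bp upstream of gpd-3. It lay in an annotated 5' UTR exon of mai-1, 275 bp downstream of the outer and 736 bp upstream of the inner mai-1 5' end. The annotation therefore puts it at the head of the operon and not next to the start of either GAPDH gene.

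This summit was the strongest at any member. It scored 431, which is 1.47 times the IDR median, and ranked 661. The replicates ranked it 683 (score 212) and 678 (score 228), with summits 7 and 0 bp away. Weaker regions of the pooled list that did not reach the IDR list lay 1829 bp upstream of gpd-2 (score 99.7, rank 6921), within gpd-2 at 336 bp (score 51.5, rank 21606) and within gpd-3 at 364 bp (score 42.0, rank 28390).

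The gene gpd-1 (WBGene00001683, chrII:10394129-10395349, plus strand) is not in this operon and shared 87.4% of residues with gpd-2 and with gpd-3. It had no IDR summit in its window and 3 regions in the pooled list. The strongest lay 4072 bp upstream and scored 113 (rank 5648). The replicates disagreed on it, at ranks 18580 and 4283. A region 1638 bp upstream, in a coding exon of T09F3.2, scored 84.7 (rank 9192), and one 514 bp upstream scored 60.6 (rank 16725) and was matched in replicate 2 but not in replicate 1. The best of these scored 0.386 of the IDR median, compared with 1.47 for the summit of gpd-2 and gpd-3.

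The unbound call of gpd-1 sat near the edges of the rule. An IDR summit with a score of 390 (rank 871) lay 5915 bp upstream, just outside the 5 kb limit. The closest member summit inside the limit was that of pyk-1 at 4896 bp. Another IDR summit, with a score of 275 (rank 1647), lay 236 bp past the 3' end of gpd-1 and 122 bp from the 5' end of T09F3.4. With 10 kb upstream, gpd-1 joined the bound genes and the count was 6 of 10, while the share over all genes rose to 28.0%. The paralogue gpd-4, with 99.0% identical coding bases to gpd-1, had an IDR summit 1620 bp upstream (score 418), which was 302 bp from the 5' end of daf-19, the RFX factor gene of ciliated neurons.

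Reads from near-identical copies may not be placed uniquely. Stretches of 50 bases that occur elsewhere in the genome made up 58.0% of the gpd-1 gene body, 26.9% of gpd-2 and 26.8% of gpd-3. In the 5 kb upstream of gpd-1 and gpd-2 they made up 0%, and upstream of gpd-3, a span that includes gpd-2, 6.50%. None of the windows around the 6 member summits held such a stretch. The read length and the treatment of reads with several placements were not given in the sources used here. The part of repeats in the weak signal within the GAPDH genes was not tested.

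**Figure D2:**
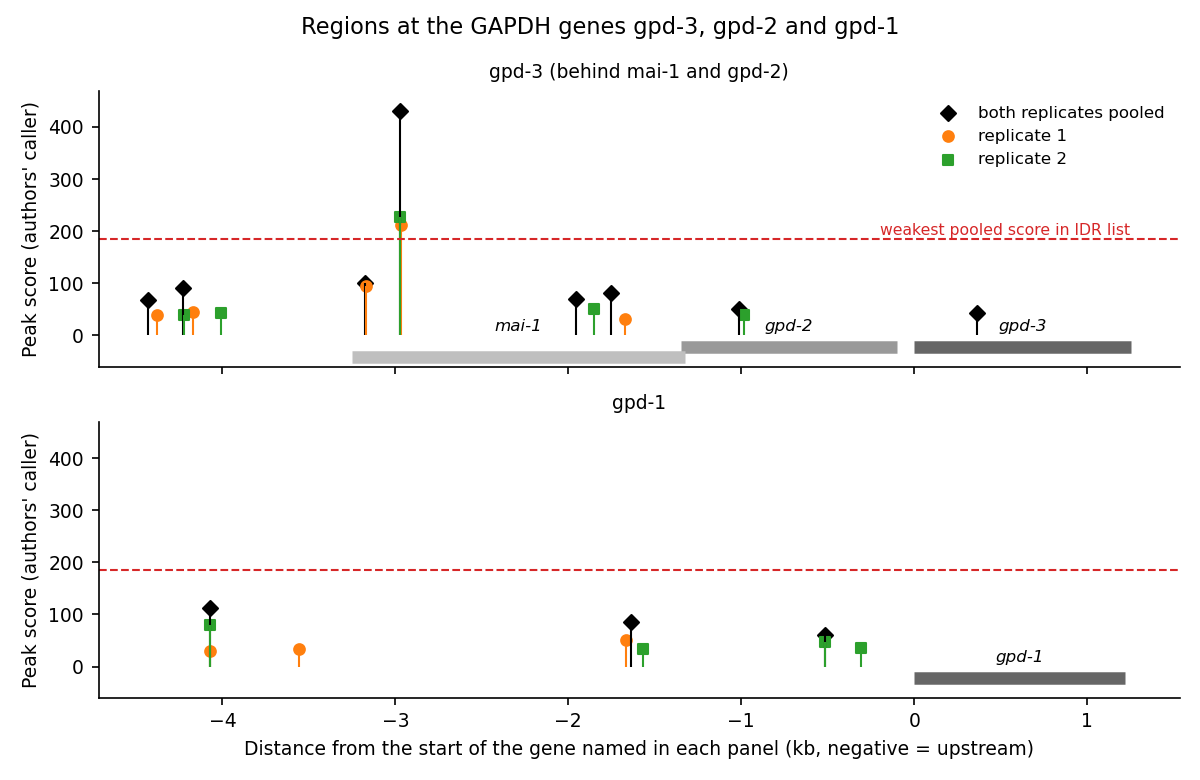
Peak scores of regions at the GAPDH genes, on a linear axis, against distance in kb from the start of gpd-3 (upper panel, with gpd-2 and mai-1 drawn as bars) and of gpd-1 (lower panel). Black marks are the pooled list, orange and green marks replicates 1 and 2, and the dashed line is the weakest pooled score of the IDR list. The summit shared by gpd-2 and gpd-3 scores 431 in the pooled list, and the strongest region of gpd-1 in its window scores 113.

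Phosphoglycerate kinase makes the first ATP of the pathway. The gene pgk-1 (WBGene00020185, plus strand, 1569 bp long) had no IDR summit in its window and only low regions in the pooled list. The strongest lay 4571 bp upstream, in a coding exon of hcp-4, which encodes a centromere protein. It scored 66.9 (rank 14092), was ranked 12882 in replicate 1 and had no match in replicate 2. The region closest to the gene start, 125 bp upstream, scored 52.6 (rank 20919), with ranks of 22935 and 20337 in the replicates. Of the 4 genes with a pooled region but no IDR summit, pgk-1 had the weakest strongest region.

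Enolase converts phosphoglycerate to phosphoenolpyruvate. The gene enol-1 (WBGene00011884, chrII:8930997-8933799, plus strand) has 3 annotated 5' ends, and its strongest pooled regions lay in an intron, 829 and 581 bp downstream of the outer start. They were 280 and 528 bp upstream of an inner 5' end. Their scores were 132 (rank 4523) and 123 (rank 4989), which are 0.451 and 0.420 of the IDR median. Replicate 1 ranked them 3651 and 3643, and replicate 2 ranked them lower, 12941 and 7624. The intron sequence shown above holds CAGCTG, an E-box of the type bound by MyoD family factors, 60.5 bp from the summit, and also GAGAG. Within 100 bp of their summits, the strongest pooled region of gpd-1 held TGATAA, and those of pfk-1.1 and pgk-1 held GAGAG. How common CAGCTG or TGATAA is among regions below the IDR list was not computed.

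Pyruvate kinase makes pyruvate and the last ATP. The gene pyk-1 (WBGene00009126, plus strand, 9057 bp long) was the longest member, has 5 annotated 5' ends and had 3 IDR summits, more than any other member. The strongest lay 1080 bp upstream of the gene start in intergenic sequence, 400 bp past the end of eef-2, with a score of 327 (rank 1212). Its replicate ranks were 1630 and 1001. The summit 4896 bp upstream scored 249 (rank 1943; 1744 and 2142 in the replicates) and lay 5 bp from the 5' end of eef-2, the gene of translation elongation factor 2. The third, 7883 bp downstream in an intron, scored 206 (rank 2571; 2842 and 2337) and lay 1834 bp past the nearest pyk-1 5' end and 12 bp before the snoRNA gene F25H5.9. Only the summit 1080 bp upstream was both intergenic and closest to a 5' end of pyk-1.

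The paralogue pyk-2 (WBGene00014001, chrIV:10909913-10913078, plus strand) was at the other extreme. No region of the pooled list lay in its window, whereas 9 of the 10 members had at least 1, against 64.2% of all genes. Replicate 1 alone listed a region 2600 bp downstream of the gene start with a score of 22.8 (rank 28580). Replicate 2 alone listed one 1418 bp upstream (score 39.5, rank 16476) and one 1753 bp downstream (score 33.0, rank 22542). The replicates named no position in common. The nearest IDR summit was 9316 bp downstream of the gene start, 841 bp from the 5' end of rbr-2. The coding sequences of pyk-1 and pyk-2 shared 68.6% of aligned bases, and 0% of the 50-base stretches of pyk-2 were repeated elsewhere.

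Lactate dehydrogenase converts pyruvate to lactate and regenerates the NAD that GAPDH uses. The gene ldh-1 (WBGene00002262, chrII:11724204-11726533, plus strand) had a summit 448 bp downstream of the gene start, in an intron. It scored 226 (rank 2222), which is 0.774 of the IDR median, and ranked 2399 (score 105) and 2248 (score 123) in the replicates. The replicate summits lay 7 and 43 bp away. The summit was nearest to a 5' end of ldh-1 itself, but its score was low: with only the stronger 1473 IDR regions, ldh-1 left the bound genes and the count was 4 of 10, against 11.0% of all genes.

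The strongest region of each gene gave an order that held in part across replicates. In the pooled list and in each replicate alone, the shared gpd-2 and gpd-3 summit came first, then aldo-1, pyk-1 and ldh-1, ahead of every unbound member. Ranks of these 4 loci ranged from 683 to 2399 in replicate 1 and from 678 to 2248 in replicate 2. Below them the order was not stable. Replicate 1 put enol-1 (3643) ahead of gpd-1 (7286) and pfk-1.1 (10701), and replicate 2 put pfk-1.1 (3605) ahead of gpd-1 (4283) and enol-1 (6388). These 3 genes therefore cannot be ordered beyond the spread of the replicates. The ranks of enol-1 and gpd-1 also belong to different regions in each replicate. The strongest enol-1 region lay 622 bp downstream of the gene start in replicate 1 and 2498 bp downstream in replicate 2. For gpd-1 it lay 1667 bp upstream in replicate 1 and 4072 bp upstream in replicate 2.

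**Figure D3:**
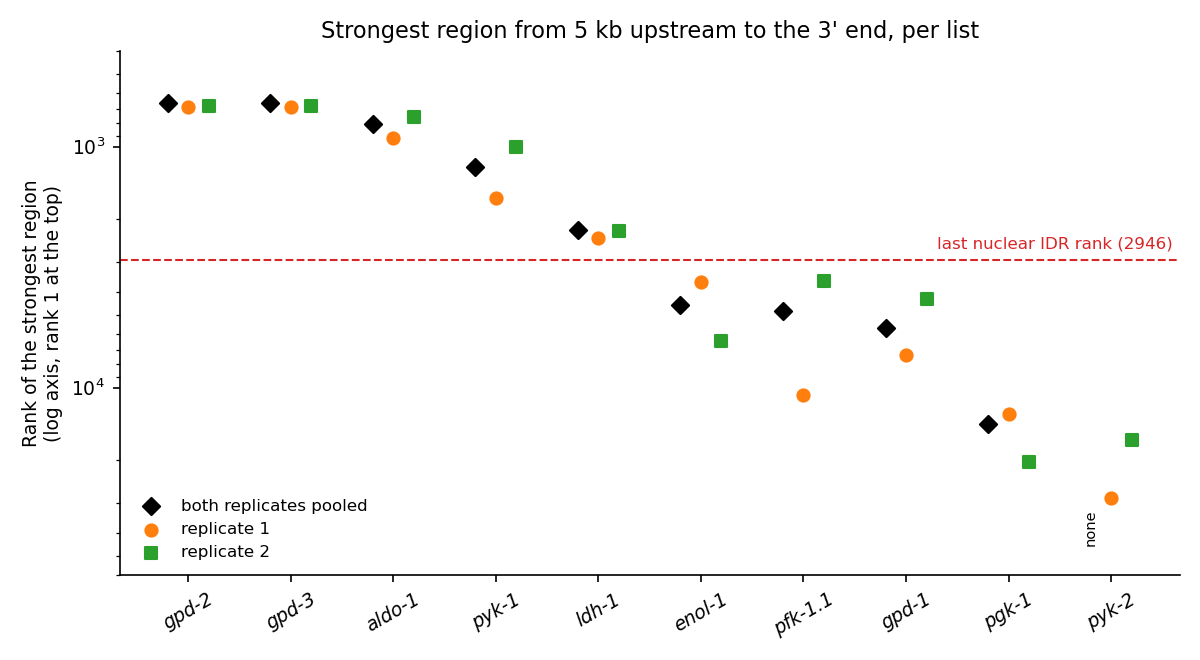
Rank of the strongest region of each gene, from 5 kb upstream to the 3' end, in the pooled list and in each replicate, on a log axis with rank 1 at the top; black, orange and green marks are the pooled list and replicates 1 and 2. The bound genes lie at ranks 661 to 2399 in the 3 lists, and the unbound genes at 3605 or beyond. In the pooled list this separation follows from the rule for a bound gene. The strongest region of a gene can differ between lists.

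The unbound genes differed in how close they came to the IDR list. The weakest nuclear IDR region scored 184.583, and the strongest pooled region outside the list scored 184.575. With the top 5892 regions of the pooled list, 8 members had a region in the window, against 31.6% of all genes, which added enol-1, pfk-1.1 and gpd-1. Their best regions scored 132, 126 and 113, below every IDR region, as did every pooled region outside the list. The median best pooled rank was 3372.5 for the members and 14288 for all genes, with genes that had no region ranked behind the list. Of the 18 pooled regions in the windows of the unbound members, 6 had a summit within 200 bp in both replicate lists, 5 in replicate 1 only, 6 in replicate 2 only and 1 in neither. All 6 IDR summits of the members were in the top 2946 regions of both replicates. The matching shares over all IDR summits and over all pooled regions outside the list were not computed. These counts therefore do not set the members apart from other genes.

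The summits had no CArG box. Neither a full CArG box nor a MEF2 type site lay within 100 bp of any of the 6 summits, and the shares over all 2946 IDR summits were 1.46% and 0.475%. A CArG box with 1 mismatch was found at 2 of the 6 (the gpd-2 and gpd-3 summit and the pyk-1 summit 4896 bp upstream), against 16.4% of all summits. The E-boxes CAGCTG and also CACCTG were at none of the 6, against 9.40% and 6.59%. Of the 6 summits, only that of aldo-1 held GAGAGAGA (16.3% of all summits) and TGATAA (10.6%). These matches and their absence describe letters in a window and nothing about which factor was there.

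The shorter GAGAG was within 100 bp of 4 of the 6 summits, against 68.8% of all IDR summits. Within 50 bp it was at 4 of 6, against 50.4%, and within 200 bp at 4 of 6, against 81.1%. Whether the members' share was above that of the list therefore depended on the window. Within 100 bp GAGAG was at 54.7% of pooled ranks 2947 to 5892 and at 31.0% of later ranks. GC content moved with it, from a mean of 45.6% to 42.1% and 39.7%, and its part in these shares was not tested. Base composition at the gpd-2 and gpd-3 summit was 58.2% GC, above 97.6% of IDR summits, and at aldo-1 it was 53.2%, above 87.9%. The other 4 member summits lay between 43.8% and 48.3%.

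The neighbouring steps of carbon metabolism were counted by the same rule. Of 9 other glycolysis enzyme genes, 4 had a summit in the window, against 19.7% of all genes, and 1 of 9 under the nearest 5' end rule, against 10.6%. Under that rule the 1 gene was the triose phosphate isomerase gene tpi-1 (1229 bp upstream, score 441). The summit of hxk-2 (hexokinase, 269 bp upstream, score 339) was nearer to cdk-9, that of gpd-4 to daf-19, and that of ipgm-1 (phosphoglycerate mutase, 4935 bp upstream, score 279) to bag-1. The paralogue pfk-1.2 had no IDR summit and no pooled region.

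Genes of the adjoining pathways were counted in the same window, where 19.7% of all genes were bound. Of 8 genes of pyruvate use and gluconeogenesis 4 were bound, among them pck-1 and pck-2, both genes for phosphoenolpyruvate carboxykinase. The gene pck-2 had summits 191 bp downstream (score 449), 1663 bp downstream (score 364) and 4375 bp upstream (score 258). Only the first was nearest to a 5' end of pck-2. The second was nearest to R11A5.6, in a coding exon of that gene, and the third to R11A5.3. The gene pck-1 had summits 986 bp upstream (score 414) and 573 bp downstream (score 208). The replicates ranked the latter 10358 and 1432. The other bound genes were dld-1 (dihydrolipoamide dehydrogenase, score 271) and fbp-1 (fructose bisphosphatase, score 195, rank 3780 in replicate 1). Of 7 glycogen, trehalose and glucose supply genes, 2 were bound, a share near that of all genes: gyg-1 (glycogenin, score 257) and pgm-1 (phosphoglucomutase, score 249). Without replicate 2, in the top 2946 regions of replicate 1 alone, the count was 1 of 7, because pgm-1 ranked 3620 there. The share over all genes was then 19.4%.

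Of 16 genes of the tricarboxylic acid (TCA) cycle, 10 were bound: idhg-1, suca-1, sucl-1, cts-1, sdha-1, idhg-2, idha-1, dlst-1, sdhb-1 and mdh-1. The share over all genes was 19.7%. The strongest was the summit 76 bp upstream of idhg-1 (isocitrate dehydrogenase, score 945, rank 63, replicate ranks 78 and 52), above every glycolytic member. The others had best scores from 188 at mdh-1 (malate dehydrogenase) to 522 at suca-1 (succinyl-CoA synthetase), with cts-1 (citrate synthase) at 320. Under the nearest 5' end rule 9 of the 16 TCA genes and 3 of the 10 glycolytic members were bound, against 10.6% of all genes. Near transcript 5' ends the counts were 9 of 16 and 2 of 10, against 9.27%. With only the stronger 1473 IDR regions the counts were 4 of 16 and 4 of 10, against 11.0%. The lists were chosen with results of these data known, and the difference between them was not tested.

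**Figure D4:**
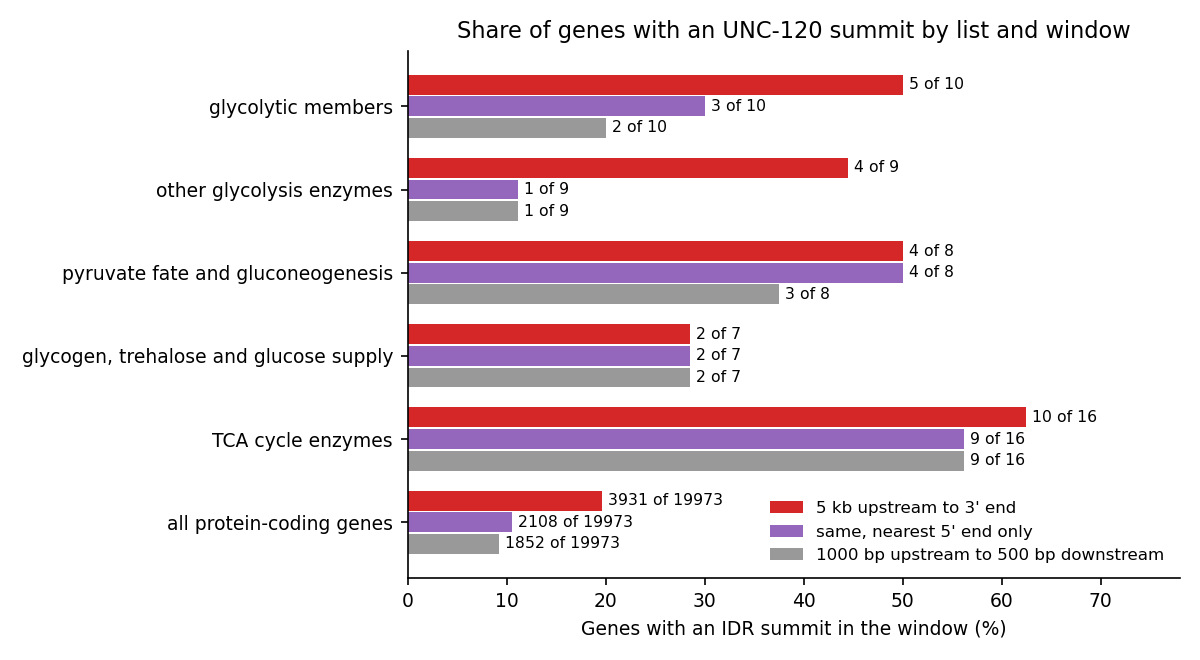
Share of genes with an IDR summit, in percent on an axis from 0, for the glycolytic members, the other metabolic gene lists and all protein-coding genes under 3 assignment rules (red for 5 kb upstream to the 3' end, purple for the nearest 5' end only, grey for 1000 bp before to 500 bp after a 5' end). The members reach 5 of 10 in the 5 kb window and 2 of 10 near transcript 5' ends.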

How the data were processed

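UNC-120-GFP ChIP-seq was measured in 2 biological replicates of 1 group, per the labels. The authors deposited ranked lists of regions for each replicate and for both pooled, and the IDR list, in builds ce10 and ce11; only the ce11 lists were used. The deposited score of each region is the authors' peak caller's own value and served for description, ranking and filters inside each list. The aligner, the peak caller and the read length were not given in the sources used here. Read counts are in none of the lists, so depth is unknown and no counting interval is given.

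The 5 mitochondrial regions of the IDR list were left out, which left 2946. Summits were set against Ensembl release 115 genes on WBcel235, which is ce11, counted from 1. A replicate's rank came from its nearest summit within 200 bp. Sequence was read from RefSeq WBcel235, and 7 short sequences were searched within 100 bp on both strands. The genes and lists were chosen with earlier results of these data known. Of 41 context genes 40 were found by symbol. Named genes were all 10 members, their paralogues, bound context genes and the gene with the nearest 5' end; other neighbours were named after their values were seen. The functions were tested on simulated regions. Alternatives, which gave 128 recomputed values, changed the window, the list length, the replicate, the thinning of summits and the motif window. Python 3.11.15, numpy 2.4.6, pandas 2.3.3, Biopython 1.88 and matplotlib 3.10.9 were used.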

Additional observations from a re-analysis of the deposited data

How the results depend on the processing

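The count of 5 bound glycolytic genes changed by more than 1.5 times under 3 of 10 alternatives, and by less under others. It was 2 with 1000 bp upstream to 500 bp downstream of a transcript 5' end (9.27% of all genes). It was 3 when only the nearest 5' end counted (10.6%), and 8 with the top 5892 pooled regions (31.6%). With 2 kb upstream it was 4 (13.7% of all genes), with 10 kb it was 6 (28.0%), and with the stronger 1473 regions it was 4 (11.0%). Using the top 2946 regions of replicate 1 or of replicate 2 alone it stayed at 5, with the same 5 genes each time. The shares over all genes were 19.4% and 19.8%. Keeping 1 summit per 400 bp (19.7% of all genes), or leaving out summits within 200 bp of tRNA and snoRNA genes (18.1%), also gave 5. The latter dropped the intronic pyk-1 summit. Within 50 bp of the summits, GAGAGAGA, the sequence TGATAA and the CArG box with 1 mismatch were at 0 of 6. Their shares over all IDR summits were 9.88%, 3.94% and 8.83%. Within 200 bp TGATAA was at 3 of 6, against 24.8% of all IDR summits. Of 128 values recomputed under an alternative, 108 stayed within set bounds and 20 did not. The bounds were 1.5 times the reported count or, for a rank, the top 2946 of the replicate's list. All 42 recomputed ranks of member summits stayed within the top 2946. They rest on 6 distinct summits in 2 replicates, with each replicate rank entered more than once at the same value. The recomputed values are therefore not independent checks. The 3 alternatives that changed the glycolytic count by more than 1.5 times altered the window, the gene given a summit or the number of regions. What set the size of these shifts was not tested.

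No paired analysis was possible because only 1 group exists, so the replicate numbers pair no samples across groups. Depth is unknown, and a region missing from a list of 30000 shows only that it was not listed.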
